A study of Mus musculus with 20 samples.

Results

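The Wnt pathway genes examined here are 48 mouse genes: 18 Wnt ligands, 12 receptors, 7 secreted inhibitors, 6 cytoplasmic factors and 5 nuclear factors. They were chosen by name, and each was measured over the CpGs inside the annotated gene and 1 kb on either side. CpGs were listed for 47 of the 48, out of 28383 annotated genes with any CpG listed at both ages. The exception was the ligand gene Wnt16.

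The libraries were made by reduced representation bisulfite sequencing, which reads methylation at CpGs near the cut sites of a restriction enzyme and so samples CpG-rich DNA most densely. The starting material was mouse brain homogenate enriched for microglia. HEM mice overexpress full-length human wild-type α-synuclein from a transgene on the X chromosome driven by the murine Thy-1 promoter, and WT mice are their controls. The corresponding background is B6D2F1/J for both genotypes, although the label of 1 HEM library at 13 months (replicate 3) names no strain. At 13 months of age 8 libraries came from HEM mice and 4 from WT mice, and at 3 months each genotype gave 4. For WT at 3 months the description names 3 mice, while 4 libraries bear the label and were all used. The samples are bulk, so a different methylation level in a cell type and a different share of that cell type cannot be told apart. The 2 ages were deposited as separate sets with different CpG lists, and age and set cannot be told apart.

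In the canonical pathway, secreted Wnt proteins bind Frizzled receptors together with the co-receptors Lrp5 or Lrp6. Dishevelled proteins (Dvl genes) then hold off a destruction complex built on Axin and Apc, so that β-catenin (Ctnnb1) reaches the nucleus and acts with the TCF and LEF factors (Tcf7, Tcf7l1, Tcf7l2, Lef1). Sfrp proteins bind Wnt ligands, and Dkk1 and Dkk2 bind the Lrp co-receptors. In brain the pathway is best known from development, where Wnt1 marks the midbrain-hindbrain boundary. Dense methylation at a CpG-rich start is a mark of silenced genes, while CpGs inside gene bodies are commonly methylated.

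Promoter windows were taken from RefSeq (GRCm38.p6, 300 bases: 250 before to 50 after a start) and matched 34 members with 43 windows. Of these, 34 windows of 29 members held a CpG listed at both ages. Methylation was under 5% in 33 of the 34 windows, 97.1%, against 86.7% of the 12141 windows of all genes that held such a CpG. The 33 ran from 0.106% (Axin2) to 2.04% (an internal start of Wnt11). The exception was a start inside Wnt5b, a ligand of the non-canonical branch, at 61.4% (53.8% to 67.5% over the 20 libraries). Its upstream start stood at 0.513% (0.191% to 0.900%). Both Wnt5b windows are shown because they carry this contrast within 1 gene, and Axin2 because its transcription is a standard readout of canonical signalling and it was the least methylated window. All 3 are written 5′ to 3′ on the gene's strand, with the CpGs that the files list in capitals.
Wnt5b upstream start, chr6:119544298-119544597, minus strand: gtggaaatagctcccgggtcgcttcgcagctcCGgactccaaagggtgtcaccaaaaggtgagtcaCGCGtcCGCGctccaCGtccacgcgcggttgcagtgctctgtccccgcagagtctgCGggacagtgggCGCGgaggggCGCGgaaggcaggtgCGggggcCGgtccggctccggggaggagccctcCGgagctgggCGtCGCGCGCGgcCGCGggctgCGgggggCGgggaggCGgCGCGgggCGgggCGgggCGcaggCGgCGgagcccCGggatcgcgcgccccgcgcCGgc
Wnt5b internal start, chr6:119449337-119449636, minus strand: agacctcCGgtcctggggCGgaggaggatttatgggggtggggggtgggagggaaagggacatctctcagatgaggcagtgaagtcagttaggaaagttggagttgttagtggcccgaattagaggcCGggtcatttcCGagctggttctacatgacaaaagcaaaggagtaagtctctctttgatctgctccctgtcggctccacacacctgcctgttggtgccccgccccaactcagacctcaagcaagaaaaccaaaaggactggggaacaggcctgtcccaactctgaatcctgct
Axin2, chr11:108920099-108920398, plus strand: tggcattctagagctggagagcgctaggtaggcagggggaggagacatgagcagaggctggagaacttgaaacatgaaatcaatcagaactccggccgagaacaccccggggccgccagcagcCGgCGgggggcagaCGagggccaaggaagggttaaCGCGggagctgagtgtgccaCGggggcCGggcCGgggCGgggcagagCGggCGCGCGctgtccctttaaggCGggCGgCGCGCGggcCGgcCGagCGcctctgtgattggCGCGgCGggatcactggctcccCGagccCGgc

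The upstream Wnt5b window holds 47 CpG dinucleotides, 33 of them listed. The internal window holds 7, of which 4 were listed, at 112, 123, 232 and 243 bp from the start. These 4 did not share 1 level: their means over the 20 libraries were 66.8%, 24.8%, 91.3% and 62.6%. Averaged over the 4 CpGs, the internal window stood at 62.1% ± 4.57 (SD, n = 8) in HEM and 62.3% ± 4.31 (n = 4) in WT at 13 months. At 3 months it stood at 60.5% ± 4.12 (n = 4) in HEM and 60.0% ± 5.31 (n = 4) in WT, so the 4 groups lay within 1 SD of each other. The member windows were CpG-rich, with a median of 27 CpG dinucleotides against 7 over all 32817 windows. The TCF/LEF core was searched on both strands as CTTTGAA and CTTTGAT, which differ in their last base and so cannot both match at the same position of a strand. CTTTGAA was found in 1 member window (Dkk1) and in 5.14% of all windows. CTTTGAT was found in 2 (the internal Wnt5b start and the Wnt11 start of lower methylation) and in 3.73% of all windows. Either form was present in 6.98% of member windows and 8.65% of all windows.

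The level of Wnt gene CpGs was lowest near the start and higher farther into the genes, up to 20 kb. Within 250 bp of an annotated start, the 1181 CpGs of the 33 members with a start in the table averaged 0.795%. From 1 to 2.5 kb they averaged 10.6%, where the CpGs of all protein-coding genes averaged 20.2%. From 2.5 to 5 kb the 93 member CpGs averaged 41.7%, close to 40.9% over all coding genes. From 5 to 20 kb they averaged 50.4% (680 CpGs), against 55.0%. Beyond 20 kb they averaged 47.2% (569 CpGs), against 62.8%. Distance was taken only to starts of the gene a CpG was counted for. The CpGs that Wnt9b shares with Wnt3 surround the Wnt3 start, whose window averaged 0.781%. They were counted again beyond 20 kb as Wnt9b CpGs. The level of that class without them was not computed, so it is not ranked against the class before it. The 4 group means were widest apart from 2.5 to 5 kb, where they ran from 38.8% ± 1.83 (SD, n = 4) in HEM at 3 months to 44.0% ± 5.31 (n = 8) in HEM at 13 months.

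**Figure D1:**
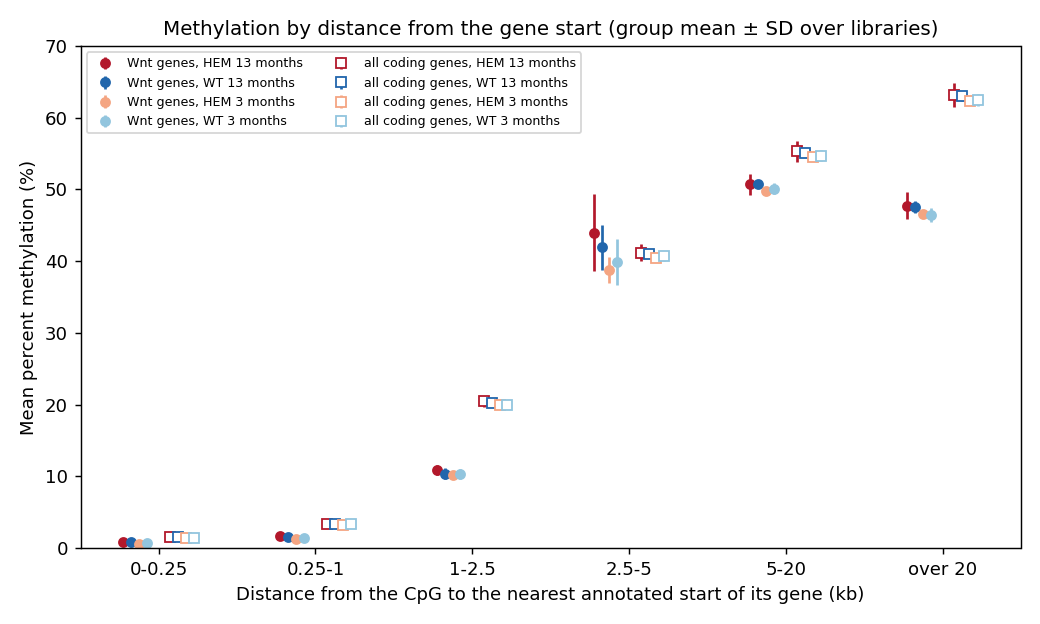
Mean percent methylation (y axis) of CpGs by distance to the nearest annotated start of their gene (x axis, kb), for the Wnt genes (filled circles) and all protein-coding genes (open squares). Points are group means and bars the SD over 8 HEM or 4 WT libraries at 13 months and 4 libraries a group at 3 months. The Wnt genes lie below all coding genes from 1 to 2.5 kb (10.6% against 20.2%) and beyond 20 kb (47.2% against 62.8%). The class beyond 20 kb includes CpGs around the Wnt3 start that were also counted for Wnt9b.

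Most Wnt gene CpGs were little methylated. Of 5558 member CpGs listed at 13 months, 75.3% had a mean under 10%, against 58.1% of all CpGs, and 6.93% had a mean over 90%, against 13.5%. At 3 months, 74.3% of 5798 member CpGs were under 10%, against 57.3%. A member region held a median of 108.5 CpGs at 13 months, from 10 (Sfrp5) to 302 (Tcf7l2). Wnt3 and Wnt9b are neighbours on chromosome 11 and share 62 of these CpGs.

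By role, the median region mean over the 20 libraries was 14.3% for ligands, 7.33% for receptors, 3.58% for inhibitors, 27.0% for cytoplasmic factors and 33.7% for nuclear factors. Averaged over its members, each role stood at nearly the same level in the 4 groups. Ligands averaged 14.997% ± 0.591 (SD, n = 8) in HEM and 15.03% ± 0.214 (n = 4) in WT at 13 months, and 14.5% ± 0.168 (n = 4) and 14.6% ± 0.355 (n = 4) at 3 months. Receptors averaged 10.2% ± 0.503 and 9.60% ± 0.343 at 13 months, and 9.36% ± 0.232 and 9.65% ± 0.398 at 3 months, in the same order. Nuclear factors averaged 25.4% ± 1.23 and 25.1% ± 0.720 at 13 months, and 24.3% ± 0.563 and 24.5% ± 0.664 at 3 months. Over all member CpGs the 20 libraries ran from 16.2% to 18.3%, and the lowest was HEM 13 months replicate 8. That library also had the lowest mean over all CpGs of the genome, 29.2%, where the other 7 of its group ran from 30.4% to 31.9%.

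Among ligands, Wnt1 was least methylated, at 1.81% over the 20 libraries (1.14% to 2.51%). Wnt7a, a ligand active in brain vessel formation, was highest, at 32.5% (30.6% to 33.9%). Among receptors the range ran from Fzd10, at 2.23% (1.33% to 3.97%), to the co-receptor Lrp5, at 28.3% (27.3% to 29.0%). Fzd1, Fzd2 and Fzd4 also lay under 5%, though Fzd4 stood at 6.78% over all its CpGs listed at 3 months. The inhibitors held the lowest member of all, Sfrp4, at 0.685% (0.131% to 1.32%) over 11 CpGs, and Dkk2, at 0.963% over 18 CpGs. Dkk2 stood at 5.18% over the 19 CpGs listed at 3 months. Dkk3, a divergent Dkk family member, was the highest inhibitor, at 25.4% (24.1% to 27.1%). Apc, a component of the destruction complex, was the lowest cytoplasmic factor, at 16.9% (16.1% to 17.5%), and Dvl2 the highest of all members, at 46.1% (44.9% to 47.8%). β-catenin itself was little methylated, at 2.21% (1.42% to 2.78%), whereas Tcf7l1, the TCF family repressor, stood at 42.0% (39.8% to 45.2%). In the order of levels, 44 of the 46 neighbouring pairs had library ranges that overlapped. The exceptions were the step from Apc to Wnt5a and that from Dvl3 to Tcf7l1.

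**Figure D2:**
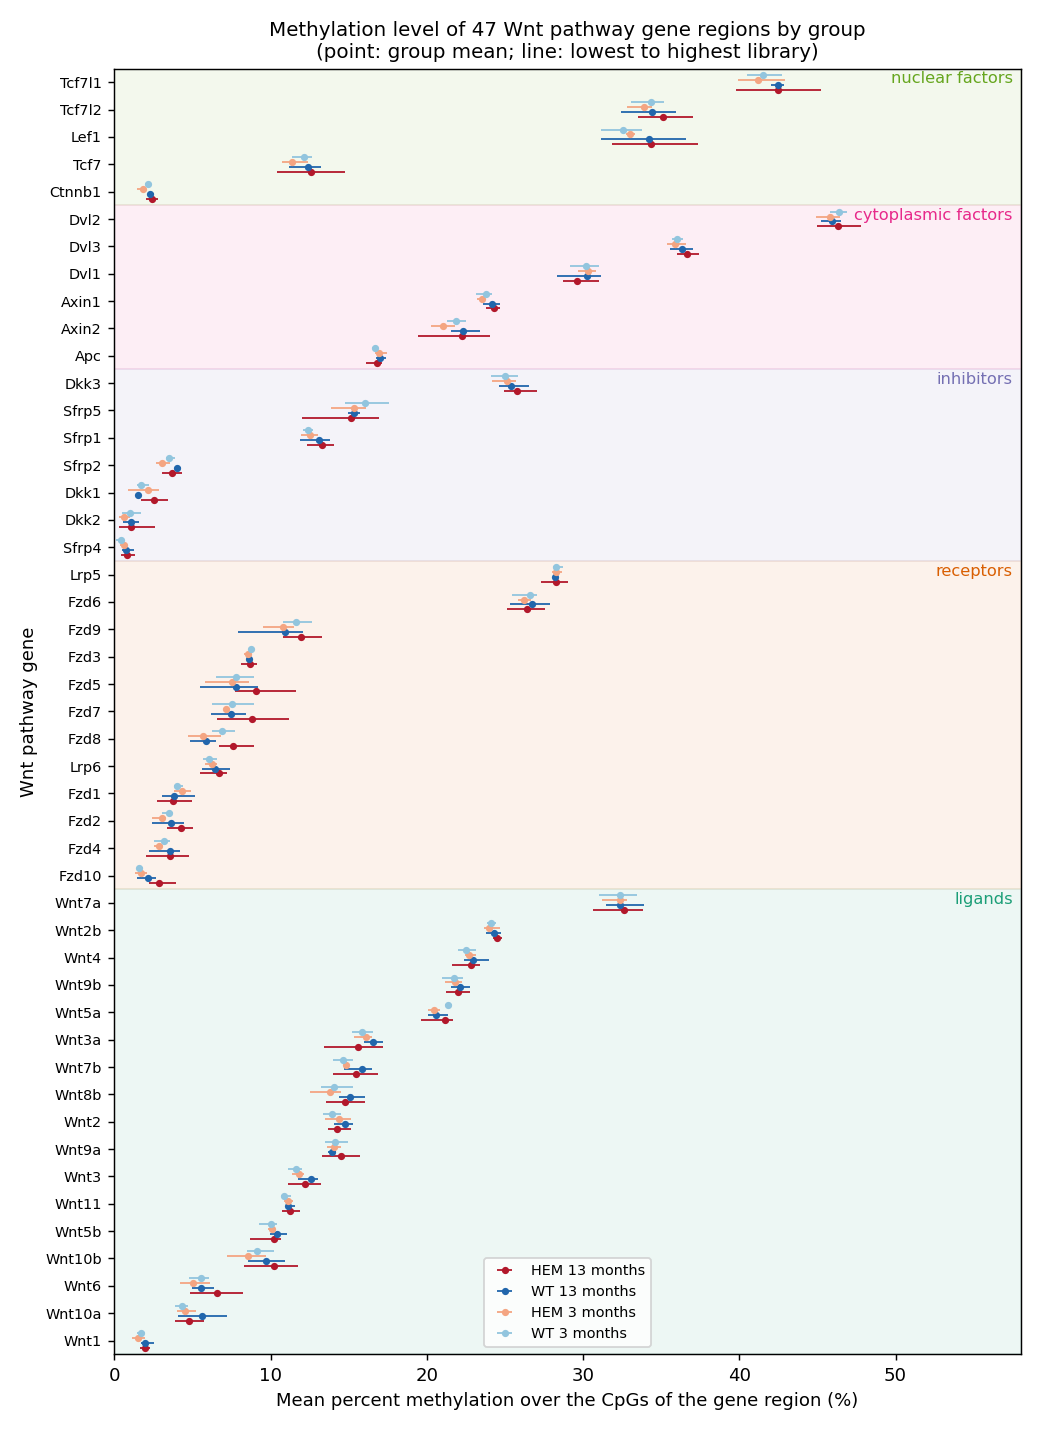
Mean percent methylation over the CpGs listed at both ages (x axis) for 47 Wnt pathway gene regions (y axis), grouped by role. Points are group means and lines run from the lowest to the highest library of a group; regions differ from 0.685% (Sfrp4) to 46.1% (Dvl2), while the 20 libraries of a region span 1.01 to 6.17 points.

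The span over the 20 libraries was under 5 points in 42 of the 47 regions. It was widest in Lef1, from 31.2% to 37.3%, and reached 5 points or more also in Fzd5, Sfrp5, Tcf7l1 and Fzd9. Levels at the 2 ages were compared only over CpGs listed at both, because the CpG list itself moves a region's mean. Sfrp1 stood at 12.2% ± 0.529 (n = 8) in HEM at 13 months and 18.01% ± 0.382 (n = 4) in HEM at 3 months over each age's own list. Over the shared CpGs these values were 13.3% ± 0.512 and 12.5% ± 0.446.

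Whether α-synuclein overexpression goes with a different methylation of Wnt genes was asked at each age. Gene regions, 1 kb tiles and single CpGs with a mean between 5% and 95% were tested with limma over the whole genome, with Benjamini-Hochberg adjustment. A feature was called at an adjusted p under 0.05 together with a difference of at least 5 points (regions and tiles) or 10 points (CpGs). No Wnt gene region was called at 13 months (0 of 37 tested, with 0% of 19448 regions called). A single region of the 37 had an unadjusted p under 0.05, higher in HEM, where 4.05% of all regions passed and 1.79% passed as higher. The median difference, HEM minus WT, was 0.138 points over the 37 and -0.0191 over all regions. No Wnt tile (0 of 192; 0% of 71077 called) and no Wnt CpG (0 of 1427; 0.000881% of 453891 called) was called either. Those with an unadjusted p under 0.05 were 12 tiles, 6.25% against 5.52% of all tiles, and 73 CpGs, 5.12% against 5.82% of all CpGs.

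The region with an unadjusted p under 0.05 was Fzd8, an intronless Frizzled receptor gene (chr18:9212856-9216201). Over the CpGs listed at 13 months it stood at 9.14% ± 0.915 (SD, n = 8) in HEM and 7.25% ± 1.24 (n = 4) in WT. The HEM libraries ran from 7.87% to 10.3% with a median of 9.01%, and the WT libraries stood at 5.68%, 8.14%, 8.35% and 6.85%, so the groups overlapped. The difference was 1.88 points (limma, log2 ratio difference 0.33, SE 0.11, adjusted p = 0.99996). The other regions named by size or p were Fzd7, 1.35 points higher in HEM (adjusted p = 0.99996), and the ligand gene Wnt6, 1.06 points higher (same adjusted p). Both groups overlapped in each.

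At 3 months no Wnt gene region was called (0 of 38; 0% of 20186 called), nor any tile (0 of 211; 0% of 78139) or CpG (0 of 1489; 0% of 492283). With an unadjusted p under 0.05 there were 9 tiles, 4.27% against 4.50% of all tiles, and 69 CpGs, 4.63% against 4.53% of all CpGs. Among regions, 4 of 38 had an unadjusted p under 0.05, or 10.5%, where 4.03% of all regions passed. All 4 were lower in HEM, where 1.95% of all regions passed as lower. The median difference was -0.0977 points over the 38 and -0.0501 over all regions. The 4 were Wnt5a, Tcf7, Fzd8 and Dvl2, each with an adjusted p of 0.99991. In 2 of the 38, Wnt5a and Dvl2, every HEM library lay below every WT library, which was the case for 1.25% of all regions.

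Wnt5a, the best studied non-canonical ligand gene, stood at 19.02%, 19.6%, 19.9% and 18.7% in the HEM libraries and at 20.6%, 20.1%, 20.5% and 20.7% in the WT libraries at 3 months. The difference was -1.19 points (limma, adjusted p = 0.99991). At 13 months the same region was 0.587 points higher in HEM (adjusted p = 0.99996), and HEM replicate 8, at 19.6%, lay below the other 7 libraries of its group. Tcf7, which encodes TCF1, stood at 16.4% ± 0.771 (n = 4) in HEM and 17.6% ± 0.380 (n = 4) in WT at 3 months, a difference of -1.20 points (adjusted p = 0.99991), and the groups overlapped. Dvl2 stood at 50.3%, 49.1%, 49.2% and 49.4% in HEM and 50.9%, 50.9%, 50.4% and 51.0% in WT, a difference of -1.28 points (adjusted p = 0.99991). Without the flanks the Dvl2 difference was 0.0461 points, that is, near 0 over the gene body. The tile of smallest p among Wnt genes at 3 months was chr11:69999001-70000000, which lies partly in that flank and partly beyond it and overlaps the neighbouring gene Phf23. Its 5 CpGs averaged 68.1%, 67.6%, 58.3% and 63.6% in HEM and 77.0%, 79.2%, 77.4% and 79.0% in WT. The groups did not overlap (-13.8 points, limma adjusted p = 0.99353). Only 2 of these CpGs were listed at both ages. Over those 2 the 3-month libraries averaged 71.8% ± 3.34 in HEM and 78.7% ± 4.26 in WT (n = 4 each), and the groups overlapped. At 13 months they ran from 47.3% to 84.9% in HEM and from 60.2% to 87.2% in WT. Tiles and CpGs were named mostly for a small p, which favours groups that do not overlap. The share of all tiles or CpGs without overlap is not given, here or below, so a lack of overlap describes the values only.

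**Figure D3:**
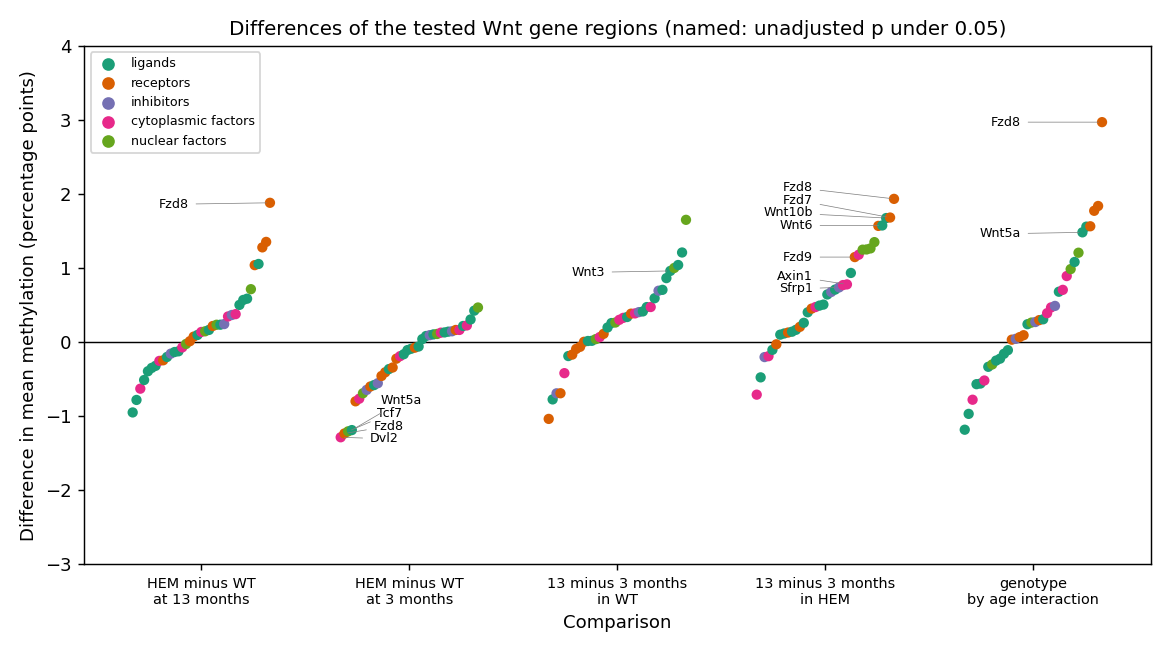
Difference in mean methylation (y axis, percentage points) of each tested Wnt gene region in the 5 comparisons (x axis), 1 point a gene, coloured by role and sorted within a comparison. Named genes have an unadjusted p under 0.05; none passed the adjusted threshold, and no difference between 2 groups reached 5 points.

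In WT mice, 13 months was compared with 3 months over the CpGs listed at both ages. No Wnt gene region (0 of 36; 0.00518% of 19289 called) and no tile (0 of 189; 0.00572% of 69888) was called. An unadjusted p under 0.05 was found for 1 region of 36, higher at 13 months (4.98% of all regions, 3.98% as higher), and 9 tiles of 189 (5.05% of all tiles). The region was Wnt3, a canonical ligand gene, at 12.6% ± 0.563 (n = 4) at 13 months and 11.6% ± 0.381 (n = 4) at 3 months (0.962 points, limma adjusted p = 0.95067). Of the 36 regions, 75.0% were higher at 13 months, where 64.1% of all regions were. The median difference was 0.284 points over the 36 and 0.299 over all regions. The region of widest difference was Lef1, 1.65 points higher at 13 months (adjusted p = 0.95124), and Wnt7b was 1.21 points higher (adjusted p = 0.95067).

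A single Wnt CpG of 1375 was called, with 0.0183% of 442157 CpGs called, and 54 had an unadjusted p under 0.05, or 3.93% against 4.79% of all CpGs. It lies inside Tcf7l1 at chr6:72763205, 25840 bp from the nearest annotated start. It was listed at 100% in all 4 WT libraries at 3 months and at 90%, 92%, 90% and 85.7% at 13 months. The groups did not overlap, and the CpG fell by 10.57 points (limma, adjusted p = 0.010525). With every 3-month WT value at the top of the scale (SD 0), the CpG passed the 95% filter only through the 13-month WT values. The call was also lost on the percent scale and with an offset of 5, so no change at this CpG is concluded. The call was lost when any of 7 of the 8 libraries was left out, the exception being WT 3 months replicate 5. In HEM mice the means of this CpG lay the other way round, at 98.7% ± 2.58 (n = 8) at 13 months and 92.2% ± 5.36 (n = 4) at 3 months, and the groups overlapped. Neither that HEM difference, the genotype difference at either age nor the interaction was tested at this CpG. In each, the mean over the libraries compared lay above 95%. A CpG of the ligand gene Wnt3a, at chr11:59259966, was named for its small p and was not called. It stood at 97.4%, 97.3%, 100% and 95.5% in WT at 13 months against 78.9%, 68.4%, 82.6% and 78.1% at 3 months (20.5 points, adjusted p = 0.35028).

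In HEM mice no Wnt gene region was called between 13 and 3 months (0 of 36; 0% of 19316 called), nor any tile (0 of 192; 0.00286% of 69982) or CpG (0 of 1378; 0.0305% of 445659). At an unadjusted p under 0.05 there were 32 tiles, 16.7% against 13.6% of all tiles, and 155 CpGs, 11.2% against 10.4% of all CpGs. Among regions there were 7 of 36, or 19.4%, all higher at 13 months, where 12.9% of all regions passed and 8.76% passed as higher. The median difference was 0.576 points over the 36 and 0.335 over all regions. Of the 36, 83.3% were higher at 13 months, where 63.8% of all regions were. The 7 were the receptors Fzd7, Fzd8 and Fzd9, the ligands Wnt6 and Wnt10b, the scaffold Axin1 and the inhibitor Sfrp1.

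Fzd8 stood at 7.59% ± 0.831 (SD, n = 8) at 13 months and 5.66% ± 0.957 (n = 4) at 3 months, a difference of 1.935 points (limma, adjusted p = 0.21594). The 13-month libraries ran from 6.68% to 8.96% with a median of 7.56%, and those at 3 months stood at 4.71%, 5.04%, 6.09% and 6.79%. The groups overlapped by 1 library. Wnt6 differed by 1.58 points (adjusted p = 0.34669), Wnt10b by 1.68 points (adjusted p = 0.36298) and Fzd7 by 1.68 points (adjusted p = 0.37276). Axin1 was the 1 region of the 36 whose libraries did not overlap (1.01% of all regions were higher without overlap). It ran from 23.8% to 24.7% at 13 months and stood at 23.2%, 23.7%, 23.6% and 23.7% at 3 months, a difference of 0.780 points (adjusted p = 0.37671).

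The Wnt tile of smallest p between ages in HEM lay inside Tcf7l2, at chr19:55771001-55772000, at 94.0% ± 1.97 (n = 8) at 13 months and 88.5% ± 1.24 (n = 4) at 3 months (5.54 points, limma adjusted p = 0.19151). In WT libraries this tile lay the other way round, at 85.0% ± 10.5 at 13 months and 92.1% ± 4.56 at 3 months (n = 4 each), with WT 13 months replicate 1 at 71.4%. The tile of next smallest p in HEM lay inside Sfrp1, which encodes a secreted Wnt-binding inhibitor, at chr8:23414001-23415000, and held 6 CpGs. It stood at 69.1%, 68.1%, 66.8% and 68.0% at 3 months and from 72.8% to 81.1% at 13 months, without overlap (8.66 points, limma adjusted p = 0.22345). A CpG of that tile, chr8:23414768, ran from 72.3% to 87.6% at 13 months and stood at 59.8%, 54.5%, 52.8% and 58.8% at 3 months (20.5 points, adjusted p = 0.27113). In WT libraries the CpG stood at 69.2% ± 8.47 (n = 4) at 13 months and 55.5% ± 9.09 (n = 4) at 3 months. In Wnt10b, the CpG chr15:98774219 ran from 25.4% to 47.9% at 13 months and stood at 13.99%, 13.91%, 17.4% and 22.2% at 3 months (20.4 points, adjusted p = 0.22423). Its WT libraries averaged 27.3% ± 5.98 at 13 months and 17.4% ± 8.18 at 3 months (n = 4 each).

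The interaction asks whether the genotype difference was the same at both ages. No Wnt gene region (0 of 36; 0% of 19309 called), tile (0 of 191; 0% of 70057) or CpG (0 of 1392; 0.000224% of 446428) was called. At an unadjusted p under 0.05 there were 2 regions, both above 0 (5.18% of all regions, 2.35% above 0), 14 tiles, 7.33% against 6.36% of all tiles, and 109 CpGs, 7.83% against 6.28% of all CpGs. The 2 regions were Fzd8, at 2.97 points (limma, adjusted p = 0.90331), and Wnt5a, at 1.48 points (adjusted p = 0.90331). Both values are the HEM minus WT difference at 13 months less that at 3 months, over the CpGs of both ages. They rest on the same libraries as the comparisons above. Fzd9, a receptor gene, followed at 1.84 points and Wnt6 at 1.56 points (adjusted p = 0.90331 for both). WT 13 months replicate 1 stood at 7.89% in Fzd9, below 11.7% to 12.1% in the other 3 libraries of its group.

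The Fzd8 values came from 1 stretch of the gene. Of its 156 CpGs listed at both ages, 30 had a mean of at least 10%, and all 30 lay between chr18:9214637 and chr18:9215056. The other Fzd8 CpGs averaged from 0.217% to 0.763% in the 20 libraries. The stretch was picked after the region's values were seen, so its values are a description without a test. Averaged over the 30 CpGs, the HEM libraries at 13 months ran from 32.97% to 43.9% with a median of 36.3%. The WT libraries at 13 months stood at 23.4%, 32.2%, 31.3% and 27.9%, all below them. At 3 months the HEM libraries stood at 23.6%, 25.3%, 30.2% and 33.3%, and the WT libraries at 35.4%, 31.7%, 37.2% and 32.3%, so these groups overlapped. The group means were 37.0% ± 3.99 (SD, n = 8) in HEM and 28.7% ± 3.99 (n = 4) in WT at 13 months, and 28.1% ± 4.47 (n = 4) in HEM and 34.2% ± 2.63 (n = 4) in WT at 3 months. The HEM mean was above the WT mean at 28 of the 30 CpGs at 13 months and at 6 of the 30 at 3 months. Neighbouring CpGs share reads, so these counts are not independent. Adjacent positions among the 30, such as chr18:9214905 and chr18:9214906, are the 2 strands of 1 CpG. The Fzd8 CpG chr18:9214867 had the smallest p of the Wnt CpGs in the interaction (38.69 points, limma adjusted p = 0.63291). In HEM at 13 months it ran from 9.68% to 47.1%, and the WT libraries of that age stood at 11.4%, 12%, 0% and 6.25%. At 3 months HEM stood at 8.70%, 20.7%, 4% and 3.57% and WT at 50%, 27.3%, 10% and 22.2%, so the groups overlapped at both ages. The 2 Fzd8 tiles divide at chr18:9215001. The one before it was 7.336 points higher at 13 months in HEM mice, without overlap (adjusted p = 0.26721), and the one after it was 12.6 points higher in HEM than WT at 13 months, with overlap (adjusted p = 0.88486).

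**Figure D4:**
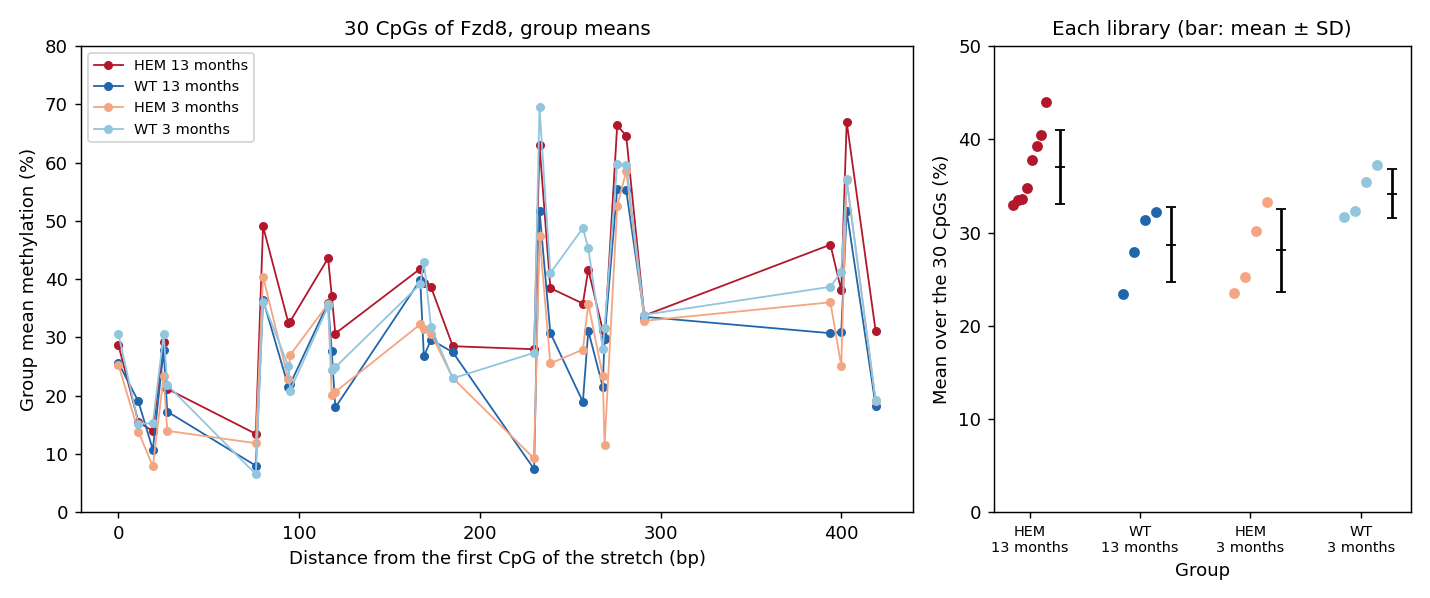
Left, group mean methylation (y axis, %) of the 30 Fzd8 CpGs with a mean of at least 10% against distance from the first of them (x axis, bp). Right, the mean over the 30 CpGs in each library by group, with bars for the group mean ± SD; HEM libraries at 13 months (32.97% to 43.9%) lie above WT libraries of that age (23.4% to 32.2%), while the groups overlap at 3 months.

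None of the other named tiles and CpGs was called. Where their groups are said not to overlap, the share of all tiles or CpGs without overlap is not given, and nothing is concluded from it. In Tcf7l2, a TCF family gene, the CpG chr19:55771312 stood in the 3-month HEM libraries at 87.5%, 81.2%, 76.5% and 86.2%, while the WT values were 100%, 94.1%, 100% and 100%, without overlap (-15.7 points, limma adjusted p = 0.82586). At 13 months it averaged 95.5% ± 3.78 (n = 8) in HEM and 88.3% ± 9.92 (n = 4) in WT. In Lrp5, the CpG chr19:3652133 averaged 94.7% ± 1.73 (n = 8) in HEM and 87.5% ± 7.53 (n = 4) in WT at 13 months, and 84.7% ± 4.30 (n = 4) and 90.6% ± 3.08 (n = 4) at 3 months. It was the Wnt CpG of smallest p between ages in HEM (10.06 points, adjusted p = 0.20737). A further Lrp5 CpG, chr19:3677925, stood at 89.3%, 91.9%, 82.2% and 88.9% in the 3-month HEM libraries, and the WT values were 96.3%, 95.2%, 96.5% and 93.2%, without overlap (-7.203 points, adjusted p = 0.98515). In Wnt9b, the CpG chr11:103731103 averaged 96.0% ± 3.11 (n = 8) in HEM and 86.2% ± 4.83 (n = 4) in WT at 13 months (9.86 points, adjusted p = 0.72990). At 3 months it averaged 95.5% ± 4.64 and 98.7% ± 1.59 (n = 4 each), and the WT difference, 13 minus 3 months, was -12.51 points (adjusted p = 0.55385). A Wnt9b tile, chr11:103743001-103744000, averaged 89.6% ± 3.38 (n = 8) in HEM and 94.4% ± 2.59 (n = 4) in WT at 13 months, and 91.95% ± 3.81 and 89.1% ± 1.76 (n = 4 each) at 3 months. Its WT libraries did not overlap between ages (5.232 points, adjusted p = 0.9312). An Apc tile, chr18:34308001-34309000, averaged 85.5% ± 4.97 (n = 8) in HEM and 91.2% ± 2.24 (n = 4) in WT at 13 months, and 86.3% ± 5.56 and 83.3% ± 1.28 (n = 4 each) at 3 months. It was the Wnt tile of smallest p between ages in WT, whose libraries did not overlap (7.924 points higher at 13 months, limma adjusted p = 0.9312). The CpG of smallest p at 3 months was in Tcf7l1, at chr6:72760477, at 100% in the 4 HEM libraries and at 83.1% ± 5.24 (n = 4) in WT (adjusted p = 0.050322). Its HEM values lay at the top of the scale, with an SD of 0. It passed the threshold with the mean filter removed, with strands averaged and without WT 3 months replicate 1. It did not pass with another scale, offset or variance model. It is listed at 3 months only. Its tile, chr6:72760001-72761000, averaged 96.9% ± 1.72 in HEM and 91.8% ± 1.87 in WT at 3 months (n = 4 each; 5.116 points, adjusted p = 0.99353). At 13 months, over 3 CpGs in place of 6, it averaged 91.7% ± 7.87 (n = 8) in HEM and 96.6% ± 3.08 (n = 4) in WT. Over those 3 CpGs the 3-month libraries averaged 97.3% ± 3.04 in HEM and 96.1% ± 1.82 in WT (n = 4 each). Most of the 3-month difference thus lay at CpGs not listed at 13 months. Another Tcf7l1 CpG listed at 3 months only, chr6:72737106, stood at 80%, 92.1%, 75% and 57.1% in HEM and 51.7%, 40%, 46.5% and 30% in WT, without overlap (34 points, adjusted p = 0.98515). A Tcf7l1 CpG farther into the gene, chr6:72653664, ran from 2.56% to 40.2% in HEM at 13 months and stood at 1.15%, 3.33%, 0% and 7.69% in WT (15.79 points, adjusted p = 0.73775).

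At a few Wnt CpGs the libraries of an age differed widely. The range over the libraries of an age was 50 points or more at 75 of the 5558 member CpGs at 13 months, 1.35% against 2.17% of all CpGs. At 3 months it was so at 33 of 5798, 0.569% against 0.997%, with 8 libraries in place of 12. Lef1 held most of them at 13 months (17), then Tcf7l1 (9) and Wnt3a (8). At 3 months Tcf7l1 held 6, Lef1 5, and Dvl1 and Fzd5 3 each. These are listed positions, and adjacent ones, as in Lef1 and Dvl1, are the 2 strands of 1 CpG. In Lef1, Wnt3a, Fzd7, Fzd8 and Tcf7l1, 4 or more of these CpGs lay in a single cluster. Of these clusters, 3 are described here without a test, since they were chosen for their range over the 13-month libraries. A narrower spread at 3 months is thus no finding about age.

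In Wnt3a, a canonical ligand gene, 7 such CpGs lay within 677 bp inside the gene (chr11:59249348-59250024). The HEM libraries at 13 months ran from 33.7% to 76.3% over them, with a median of 67.1%. Replicates 8, 13 and 11 were lowest, at 33.7%, 36.9% and 50.5%, and the other 5 stood at 65.2% or above. The WT libraries at 13 months stood at 74.8%, 80.1%, 75.9% and 71.7%. At 3 months HEM stood at 84.9%, 84.4%, 75.3% and 72.1% and WT at 73.0%, 74.5%, 71.5% and 70.7%. The low values were thus found in 3 of 8 HEM libraries at 13 months and in no library of the other groups. Over all CpGs, replicates 8, 11 and 13 averaged 29.2%, 31.0% and 31.4%, within or below the range of the other 5 (30.4% to 31.9%), and the part of this in the Wnt3a values was not tested.

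In Lef1, 8 listed CpG positions lay within 44 bp (chr3:131218433-131218476). Some are adjacent and so are the 2 strands of 1 CpG, such as chr3:131218443 and chr3:131218444. In HEM 13 months replicate 11 these stood at 55.7% and 12.2%. Averaged over the 8 positions, the HEM libraries at 13 months ran from 28.1% to 81.8% with a median of 43.9%, and WT stood at 79.6%, 46.5%, 31.3% and 41.1%. At 3 months HEM stood at 65.6%, 65.2%, 48.1% and 45.2% and WT at 68.5%, 44.7%, 40.8% and 44.6%. High and low libraries were thus present in all 4 groups. In Fzd7, 6 CpGs lay within 117 bp (chr1:59484279-59484395), 2190 bp from the start. They ran from 26.5% to 68.6% in HEM (median 45.7%) and stood at 35.8%, 46.7%, 20.7% and 52.3% in WT at 13 months. At 3 months they stood at 39.2%, 39.5%, 37.4% and 35.9% in HEM and 42.5%, 38.3%, 49.9% and 33.3% in WT, a narrower spread.

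**Figure D5:**
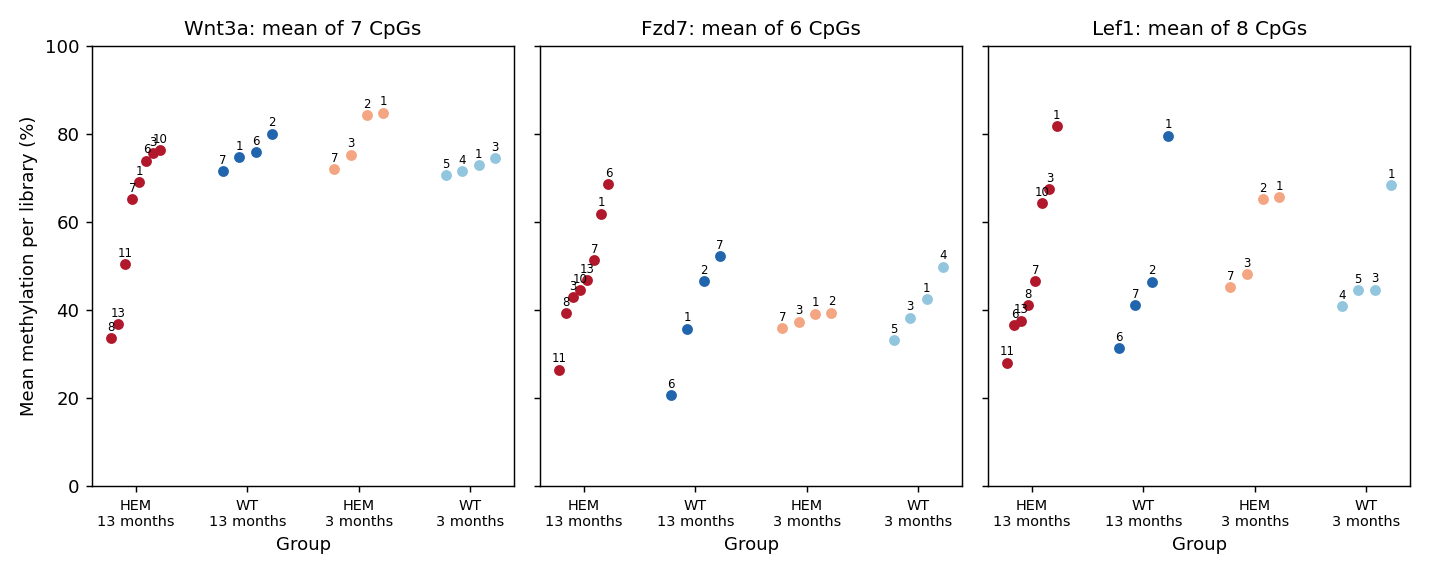
Mean methylation per library (y axis, %) over the clustered CpGs of wide range in Wnt3a (7 CpGs), Fzd7 (6) and Lef1 (8), by group (x axis); each point is a library with its replicate number. In Wnt3a the low libraries are HEM 13 months replicates 8, 13 and 11, while in Lef1 the highest library of each group lies between 65.6% and 81.8%.

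A further 62 genes of the pathway (among them genes for Wnt secretion, R-spondins and their receptors, kinases of the destruction complex and nuclear co-factors) were looked up as a list. None of the 50 to 53 tested as gene regions was called in any comparison. At an unadjusted p under 0.05 there were 2 of 50 between genotypes at 13 months (1 higher in HEM, 1 lower; 4.05% of all regions), 1 of 53 at 3 months (lower in HEM; 4.03%) and 1 of 50 between ages in WT (higher at 13 months; 4.98%). Between ages in HEM there were 4 of 50 (3 higher at 13 months, 1 lower), where 12.9% of all regions passed, and the interaction gave 0 of 50 (5.18% of all regions). The smallest adjusted p among them was 0.307, between ages in HEM.

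The marker genes of microglia, 10 of 12 with enough CpGs, averaged 50.6% ± 4.95 (SD, n = 8) in HEM and 53.4% ± 4.96 (n = 4) in WT at 13 months, and 55.6% ± 3.95 and 54.6% ± 2.53 (n = 4 each) at 3 months. Neuronal marker genes, 8 of 8, averaged 18.4% ± 0.785, 17.9% ± 0.702, 17.6% ± 0.129 and 17.7% ± 0.449 in the same order. These are methylation levels of the genes and do not measure a share of cells, and their part in the Wnt gene differences was not tested. Read depth is not in the files, so how much of the spread at single CpGs is counting error is unknown.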

How the data were processed

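The 20 libraries were prepared by reduced representation bisulfite sequencing. The authors deposited 1 table per library with the percent methylation of each listed CpG; Bowtie2, methylKit and the mm10 build are named in the submitters' processing notes, without versions. The tables hold no read counts, so depth per library is unknown and no counting interval is given; a count model planned for read counts was replaced by limma. Every library listed the same CpGs within an age: 1151247 at 13 months and 1234494 at 3 months, 1132618 of them at both. A CpG listed on both strands takes 2 adjacent positions, and each position was counted as a CpG unless strands were averaged. The deposited table of all 13-month libraries has 1 value column that equals no library file, and the values used here came from the tables of single libraries.

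Genes and promoter windows came from RefSeq (GRCm38.p6, the same chromosomes as mm10). A gene region is the annotated gene with 1000 bp on either side. Regions and 1000 bp tiles needed at least 3 CpGs. Means between 5% and 95% were transformed to log2((percent + 1)/(100 - percent + 1)) and compared by moderated linear models (R 4.3.3, limma 3.58.1). Benjamini-Hochberg adjustment ran over all features of a kind. Genotype was tested over the CpGs of an age, and age and the interaction over CpGs of both ages. P-values set a group difference against the spread between libraries within groups. Each library was treated as a separate animal, also in WT at 3 months, where the description names fewer mice than libraries. The numbers of replicates were not taken to pair libraries. The members, gene lists and named features were chosen with earlier results of these data known. Named in each comparison were the 3 regions of smallest p and the 2 of largest difference, the called CpGs and tiles or else the 3 CpGs and 2 tiles of smallest p, the highest and lowest member of each role, and the 3 members with most CpGs of a range of at least 50 points. Other features named were chosen after their values were seen. The scripts were tested on simulated data. Alternatives changed the scale, offset, filters, variance model, flank, strands, gene set and libraries.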

Additional observations from a re-analysis of the deposited data

Results flagged for a closer look

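In 120 groups of libraries, taken over the named gene regions, tiles and CpGs on the CpG list of each age, 7 (5.83%) held a library set apart from the others by Dixon's criterion at 95%, where chance gives about 1 in 20. In Wnt3, WT 3 months replicate 3 stood at 12.8%, below 13.7% to 13.9% in the other libraries of its group. In Wnt5a, HEM 13 months replicate 8 stood at 19.64%, below 20.9% to 21.7%. In Fzd7, HEM 3 months replicate 3 stood at 7.101%, above 6.83% to 6.88%. In Fzd9, WT 13 months replicate 1 stood at 7.89%, below 11.7% to 12.1%. In Dvl2, WT 3 months replicate 4 stood at 50.43%, below 50.9% to 51.0%. At the Lrp5 CpG chr19:3652133, WT 13 months replicate 1 stood at 76.32%, below 90.2% to 92.7%. At the Tcf7l2 CpG chr19:55771312, WT 3 months replicate 3 stood at 94.12%, below 100% in the other 3.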

How the results depend on the processing

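The counts of called Wnt gene regions and tiles were 0 in all 5 comparisons under each alternative run. The count of Wnt CpGs called between genotypes at 3 months was 0, and became 1 (Tcf7l1, chr6:72760477) without the filter on the mean and with strands averaged, and ran from 0 to 1 when each library was left out. The count between ages in WT was 1, and became 0 on the percent scale, with an offset of 5, with trended robust variances, with all 4 groups in 1 fit and with strands averaged, and ran from 0 to 1 when each library was left out. The other counts of called CpGs stayed at 0. Of 458 alternative values of named differences, 457 kept their sign. The exception was Dvl2 at 3 months, at 0.04609 points for the gene body without flanks against -1.284 points. Counts over all CpGs varied more. Between ages in WT they went from 81 to 38 on the percent scale and 181 without WT 13 months replicate 6, and between ages in HEM from 136 to 20 on the percent scale. Between genotypes they went from 0 to 57 without WT 3 months replicate 1 at 3 months, and from 4 to 45 without WT 13 months replicate 1 at 13 months. The causes were not tested. With protein-coding genes only, added after the data were seen, the counts stayed as they were.

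Libraries of the same replicate number did not deviate together throughout (r from -0.3 to 0.382), so the numbers were not taken as pairs. Between genotypes at 13 months they did so in each shared number: r was 0.173, 0.382 and 0.0953 for replicates 1, 6 and 7. The highest r of these HEM libraries with WT libraries of other numbers was 0.0452, -0.0479 and 0.0126. The p-values given for that comparison are unpaired. With the replicate number as a block, the counts of called Wnt regions, tiles and CpGs were 0 in the 2 genotype comparisons, between ages in HEM and in the interaction. The blocked fits of 2 groups rest on the few shared numbers: 1, 6 and 7 at 13 months, 1 and 3 at 3 months, and 1, 3 and 7 between ages in HEM. So few pairs could hardly give a call, and these counts of 0 decide nothing about pairing. No paired analysis was possible for ages in WT because these groups share only replicate number 1. Without read depth, the error of single CpGs near 0% or 100% is unknown.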
